A study of Mus musculus with 10 samples.

Results

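The interferon response and MHC class I genes were followed in the ventral hippocampus (vHpc) of ovariectomized (OVX) female mice. They were 33 genes chosen by name, of 24421 genes in the deposited table: the MHC class I chains, the proteins that cut and load their peptides, the transcription factors of the interferon pathway, sensors of foreign RNA, and genes that interferons switch on. All 33 were in the table, and all 33 passed the filter on low values, a mean of at least 0.5 CPM (reads per 1000000 reads counted on genes), as did 15081 of the 24421.

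The animals were C57BL/6 females, OVX at 70 to 80 days of age and left to recover for 2 weeks. OVX WT mice carried the wild-type Bdnf gene, and OVX Het-Met mice carried 1 copy of the Met allele of the BDNF Val66Met variant. Each genotype then drank either E2 (β-estradiol, 300 nM in 0.1% ethanol, 0.7 µg per day) or vehicle (0.1% ethanol) for 6 weeks. Of the 10 libraries, OVX WT mice gave 2 under vehicle (replicates 1 and 3) and 2 under E2 (replicates 1 and 2), and OVX Het-Met mice gave 3 under each. Each library came from RNA pooled from 2 animals. All groups were OVX, so none had the hormones of an intact ovary. The Met allele is a codon change in the endogenous gene, so the expression values do not check the genotype labels.

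Interferons are secreted proteins that warn cells of infection. Type I interferons act through receptors and JAK kinases on a complex with STAT2 and IRF9, which binds the interferon-stimulated response element (ISRE) in the promoters of their target genes. Type II interferon acts on a different element, the gamma-activated site (GAS). MHC class I molecules, made of a heavy chain and the light chain β2-microglobulin, show peptides cut by the proteasome to T cells. In brain, microglia and endothelial cells are known for high levels of these genes, and neurons also use class I molecules in the shaping of synapses.

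The ISRE, searched on both strands as GAAA, any 2 bases and a further GAAA, is the element of type I interferon targets, and 7 of its matches are printed for that reason. RefSeq promoters of GRCm38.p6 (250 bases before to 50 after the gene start) were found for 26 of the 33 genes. Of these, 13 (50%) held an exact match to that string, against 3.99% of the 27018 genes with a promoter: B2m, Bst2, Ddx58, Gbp2, Gbp3, Ifih1, Ifit1, Ifit3, Igtp, Irgm1, Isg15, Rsad2 and Stat2. Variants of the element were not searched, so a promoter without an exact match may still hold one. The 40 bases around the first match are shown 5′ to 3′ on the strand of the gene, with the match in capitals.
B2m: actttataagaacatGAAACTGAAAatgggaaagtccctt
Bst2: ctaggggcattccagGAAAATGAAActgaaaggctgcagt
Gbp3: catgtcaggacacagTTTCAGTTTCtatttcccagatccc
Stat2: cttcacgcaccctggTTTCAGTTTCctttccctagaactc
Isg15: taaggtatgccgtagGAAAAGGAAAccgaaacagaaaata
Ifit1: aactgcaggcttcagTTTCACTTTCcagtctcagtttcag
Rsad2: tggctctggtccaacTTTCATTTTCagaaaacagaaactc
The B2m window is chr2:122147533-122147572 (plus strand), the Bst2 window chr8:71537578-71537617 (minus strand), and the Gbp3 window chr3:142559984-142560023 (plus strand). Stat2 has its window at chr10:128270261-128270300 (plus strand), Isg15 at chr4:156200872-156200911 (minus strand), Ifit1 at chr19:34640770-34640809 (plus strand) and Rsad2 at chr12:26456548-26456587 (minus strand). The match began at position -139 from the gene start in B2m, -130 in Bst2, -45 in Gbp3, -222 in Stat2, -78 in Isg15, -104 in Ifit1 and -120 in Rsad2. All 7 printed matches thus lay upstream of the gene start. In the genes not printed, the first match began at -59 in Gbp2, -156 in Ifit3, -34 in Igtp and -30 in Irgm1. In Ddx58 (position 2) and Ifih1 (position 32) it began after the gene start. GAS, searched as TTCNNNGAA, was in 5 of the 26 promoters (19.2%, against 9.55% of genes): Bst2, Ifit2, Igtp, Irf1 and Psmb8. The estrogen response element, searched as GGTCA, any 3 bases and TGACC, was in 0 of the 26 and in 0.074% of genes. Matches were counted on both strands and could share bases with a match of another motif.

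The libraries had from 19820184 to 23267410 reads on genes, so that 1 read was worth 0.0430 to 0.0505 CPM and a count of 0 allows up to 3 reads, 0.129 to 0.151 CPM. Differences were tested with limma on log2(CPM + 0.5) over all 15081 genes, with 1 model of the 4 groups, and values are of this model unless another fit is named. A gene was called at a Benjamini-Hochberg adjusted p under 0.05 and a fold change above 1.3, and counts at an unadjusted p under 0.05 are given beside the calls. All fold changes below are on that log2 scale, which understates the change of low genes. P-values measure the spread between pools. In a tissue, fewer cells of a type and less RNA per cell cannot be told apart. The smallest two-sided p of an exact permutation test was 0.333 for 2 against 2 libraries and 0.1 for 3 against 3 or 2 against 3, so none could pass 0.05.

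Per kilobase of exon, the light chain gene B2m stood far above the rest, at a mean of 129 CPM per kb over the 10 libraries. Ifi27, a small mitochondrial membrane protein induced by interferon, came next at 16.3 CPM per kb. Tapbp (tapasin, 9.25), H2-K1 (9.15), Lgals3bp (8.49), H2-D1 (7.93) and Stat2 (6.08 CPM per kb) followed. At the low end were the antiviral enzyme gene Rsad2 (0.331), the immunoproteasome subunit gene Psmb9 (0.258) and the class I transactivator gene Nlrc5 (0.143 CPM per kb). The spread of levels among the 33 genes was thus far wider than any difference between groups, as the plot of levels per exon length shows. Not corrected for length, 17 of the 33 averaged under 5 CPM, 9 between 5 and 20 and 7 above 20 CPM, with a median of 4.68 CPM against 22.8 CPM over all genes tested. In 18 of the 33 at least 1 library held under 100 reads.

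**Figure D1:**
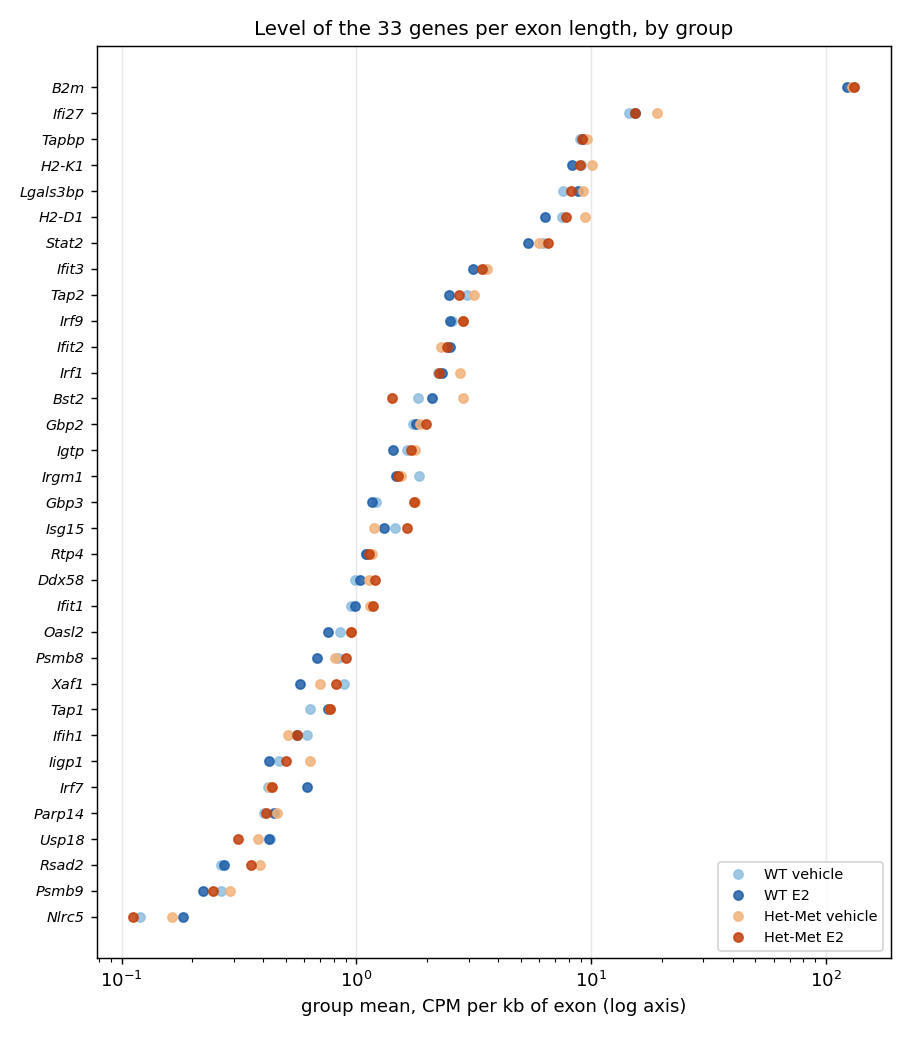
Group means of the 33 genes in CPM per kb of exon (log axis), 1 row per gene ordered by the mean of the 10 libraries and 1 point per group. B2m lies alone at the top with a mean of 129 CPM per kb, Nlrc5 is lowest at 0.143, and the 4 groups of a gene mostly lie close together.

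Reads shared with close copies limit some of these values. Of the 75-base windows in the transcripts of Ifit3, 41.1% also occur in another gene (Ifit3b), as do 10.5% of those of Rtp4, 7.8% of Igtp (in Irgm2), 5.4% of H2-D1, 5.19% of Ifit1, 3.1% of H2-K1 and 2.06% of Gbp3 (in Gbp7). The levels of these genes are therefore uncertain. Ifi27, Irgm1, Iigp1 and Oasl2 also belong to gene families, but 0% of their windows occur elsewhere, and the same held for Bst2. The class I genes H2-Q6 and H2-Q7 were listed at 0 in all 10 libraries.

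In the vHpc of vehicle-treated mice, no interferon or class I gene was called between genotypes, and 24 of the 33 had a fitted difference above 0 (Het-Met above WT), with a median log2 difference of 0.11 against 0.02 over all genes. Those 24 became 17, with 16 below 0, without vehicle-treated WT replicate 3. At an unadjusted p under 0.05 the genes were H2-D1, Ifi27, Bst2, Gbp3 and Lgals3bp, 5 of 33 and all higher in Het-Met mice. That is 15.2% of the members, beside 5.85% of all genes higher and 4.83% lower at that p, and 0.00663% of all genes called. By edgeR 4 and by DESeq2 3 members passed the unadjusted p, and both called 0. The smallest adjusted p was 0.417 (limma). Where a left-out library leaves 1 in its group, that one is assumed to vary like the other groups. Without vehicle-treated Het-Met replicate 1 the count of 5 became 0, without vehicle-treated WT replicate 3 it became 2, and without vehicle-treated WT replicate 1 or vehicle-treated Het-Met replicate 3 it became 3. The libraries of the genotypes did not overlap for 9 members higher in Het-Met mice (H2-D1, Ifi27, Ddx58, Oasl2, Rsad2, Bst2, Gbp3, Iigp1 and Lgals3bp; 14.8% of all genes) and 2 lower (Ifih1 and Irgm1; 9.89%).

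Under E2, the genotype comparison again called 0 of the 33 genes, and 22 had a fitted difference above 0, with a median of 0.11 against 0.03 over all genes. Those 22 became 17, with 16 below 0, without E2-treated WT replicate 2. H2-D1, Stat2, Oasl2, Gbp3 and Xaf1 passed an unadjusted p under 0.05, 5 of 33 and all higher in E2-treated Het-Met mice, beside 6.29% of all genes higher, 5.36% lower and 0.0265% called. edgeR gave 3 and DESeq2 2, with 0 called by either. The smallest adjusted p was 0.353 (limma). Leaving out E2-treated WT replicate 2 brought the 5 to 1 (Nlrc5, lower), and leaving out vehicle-treated Het-Met replicate 2 or E2-treated Het-Met replicate 2 brought it to 3. Of the 3 without E2-treated Het-Met replicate 2, Irf7 was lower in Het-Met mice. Leaving out E2-treated Het-Met replicate 1 gave Stat2 and Xaf1 as higher and Usp18 and Lgals3bp as lower. Psmb8, Stat2, Oasl2 and Xaf1 were higher in every Het-Met library than in both WT libraries, 4 members beside 21.1% of all genes, and 0 members were lower in all, beside 14.7%.

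E2 add-back against vehicle in OVX WT mice called 0 of the 33 genes, beside 0.0133% of all genes, with a median log2 difference of -0.01 against -0.00 over all genes. Only Xaf1 had an unadjusted p under 0.05, and it was lower after E2, beside 4.04% of all genes at that p and 1.66% lower (edgeR 1, DESeq2 1, 0 called by either). The count became 2 without vehicle-treated WT replicate 3 (Stat2 and Xaf1) and without E2-treated WT replicate 1 (Irgm1 and Xaf1). It stayed at 1 without vehicle-treated WT replicate 1 or E2-treated WT replicate 2, but the gene was then Tap1 and Nlrc5, each higher after E2. Irf7, Ddx58 and Lgals3bp were higher in both E2-treated libraries than in both vehicle-treated ones (15.6% of all genes), and Tap2, Stat2, Ifit3, Oasl2, Irgm1 and Xaf1 were lower (16.2%).

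In OVX Het-Met mice, E2 add-back also called 0 of the 33 genes and 0% of all genes, and 21 of the 33 had a fitted difference below 0, with a median of -0.06 against 0.00 over all genes. Without E2-treated Het-Met replicate 3, 11 of the 33 lay below 0 and 22 above. H2-D1, Ifi27 and Bst2 had an unadjusted p under 0.05, and all 3 were lower after E2, beside 5.45% of all genes at that p, 2.63% lower and 2.82% higher (edgeR 3, DESeq2 3, 0 called by either). Bst2 had the smallest p of the 33 genes in any comparison. The count of 3 became 6 without E2-treated Het-Met replicate 1 and 1 (Bst2) without E2-treated Het-Met replicate 2 or 3 or vehicle-treated Het-Met replicate 1. Ifi27 and Bst2 did not overlap between treatments, 2 members beside 5.11% of all genes lower.

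The interaction, which tests whether the E2 difference itself differed between genotypes, called 0 of the 33 beside 0.0729% of all genes. Stat2, Bst2, Xaf1 and Lgals3bp had an unadjusted p under 0.05, 4 members beside 5.42% of all genes (edgeR 3, DESeq2 4, 0 called by either). Stat2 and Xaf1 lay above 0 (2.8% of all genes) and Bst2 and Lgals3bp below 0 (2.62%). Leaving out E2-treated WT replicate 1 or vehicle-treated Het-Met replicate 1 brought the 4 to 2, Bst2 and Xaf1. With E2 averaged over genotypes, H2-D1, Tap2 and Bst2 were lower at an unadjusted p under 0.05, beside 1.49% of all genes lower and 0.00663% called, and 25 of the 33 lay below 0, with a median of -0.05 against 0.00. Without vehicle-treated WT replicate 1 those 25 became 15, and without E2-treated WT replicate 2 they became 16. The count of 3 became 1 without vehicle-treated WT replicate 1, E2-treated WT replicate 2 or E2-treated Het-Met replicate 3. With genotype averaged over treatments, H2-D1, Oasl2 and Gbp3 were higher in Het-Met mice at an unadjusted p under 0.05, beside 9.33% of all genes higher, 7.27% lower and 0.0265% called, and 27 of the 33 lay above 0, with a median of 0.10 against 0.02. Without vehicle-treated WT replicate 3 those 27 became 21, with 12 below 0. They became 23 without E2-treated WT replicate 2 or E2-treated Het-Met replicate 1. Here the count of 3 became 9 without E2-treated Het-Met replicate 3. It became 2 without vehicle-treated Het-Met replicate 1, E2-treated Het-Met replicate 1 or E2-treated Het-Met replicate 2. edgeR gave 2 and 3 members for these averages, DESeq2 gave 2 and 2, and both called 0. The comparisons share libraries, so their values for a gene are given side by side and are not separate evidence.

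**Figure D2:**
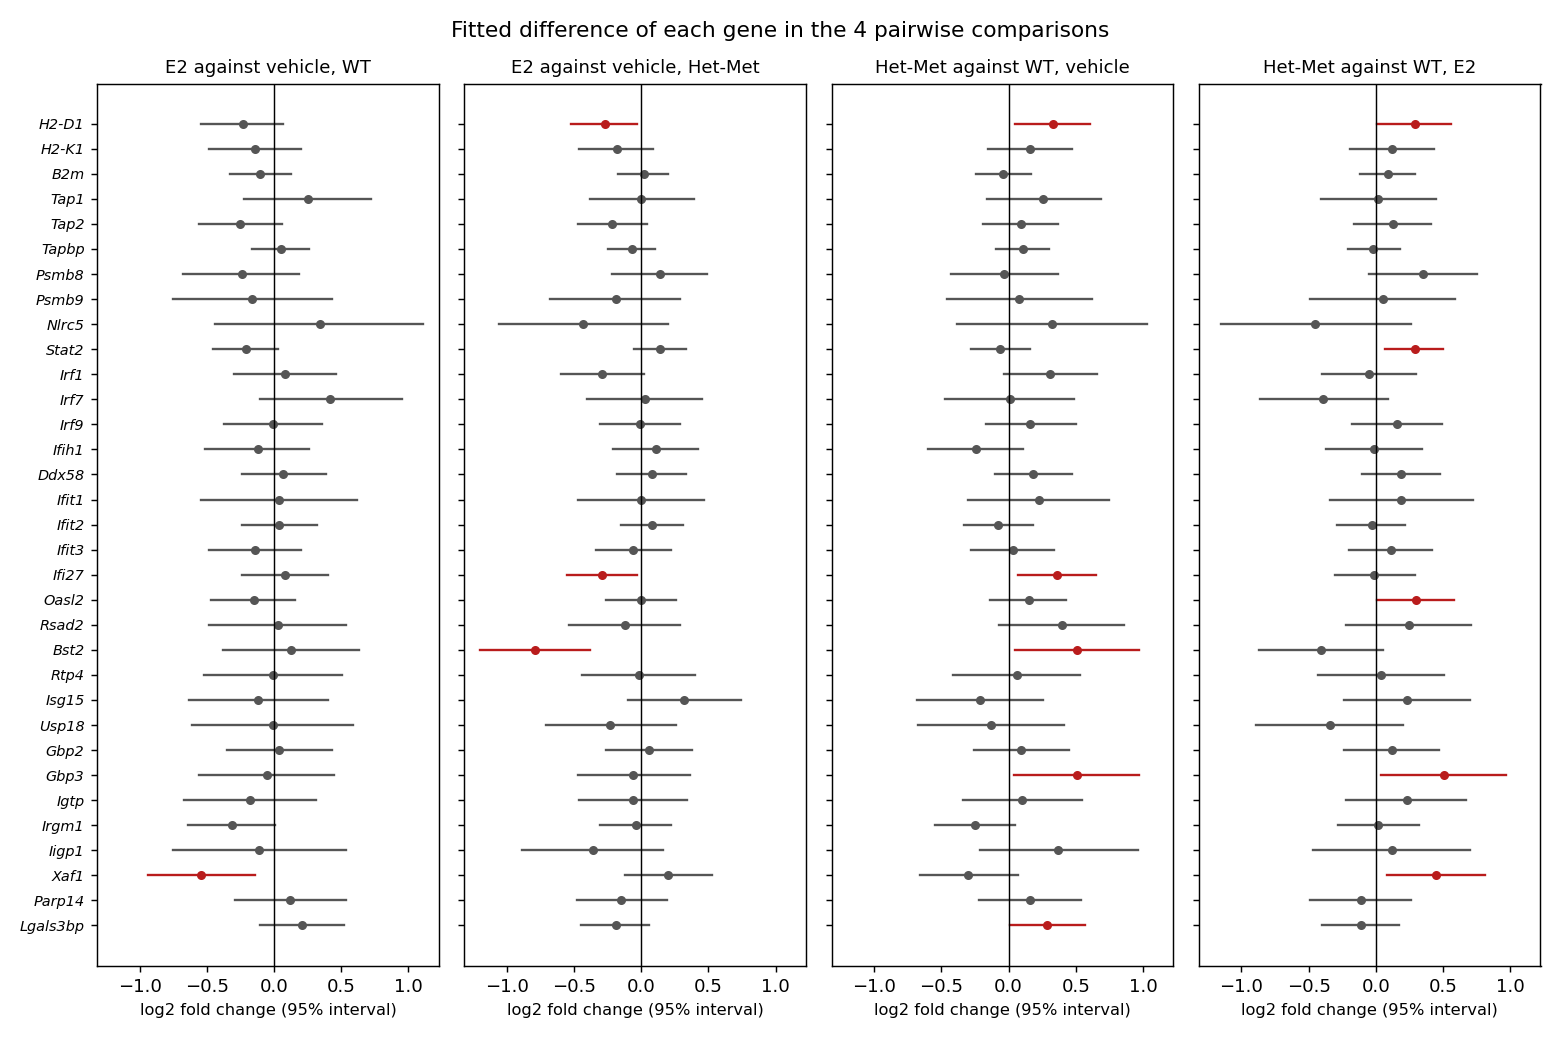
Fitted log2 fold change of each gene with its 95% confidence interval in the 4 pairwise comparisons, genes grouped by role from the class I chains at the top. Red marks an unadjusted p under 0.05 (1, 3, 5 and 5 genes from left to right), and none of the 33 genes passed an adjusted p under 0.05 in any panel.

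The class I heavy chain gene H2-D1 lies at chr17:35262730-35267499 (plus strand, GRCm38). In vehicle-treated WT libraries it was at 17.8 and 20.8 CPM, and in E2-treated WT libraries at 17.8 and 14.9 CPM. The Het-Met libraries held 26.4, 24.1 and 22.4 CPM under vehicle and 23.4, 17.7 and 19.2 CPM under E2. All 3 vehicle-treated Het-Met libraries were above both vehicle-treated WT libraries, while the E2-treated groups overlapped slightly, at 17.7 and 17.8 CPM. The group means were 19.3 ± 2.12 (SD, n = 2), 16.3 ± 2.02 (SD, n = 2), 24.3 ± 2.04 (SD, n = 3) and 20.1 ± 2.99 CPM (SD, n = 3). Averaged over treatments, H2-D1 was 1.24-fold higher in Het-Met mice (log2 0.31, SE 0.09, 95% interval 0.11 to 0.50), with an unadjusted p of 0.0046 and an adjusted p of 0.146 (limma). The unadjusted p stayed under 0.05 without each of the 10 libraries in turn, and over all settings the adjusted p of H2-D1 for this average lay between 0.0952 and 0.437. With E2 averaged over genotypes, H2-D1 was 1.19-fold lower (log2 -0.25, SE 0.09; adjusted p = 0.999, limma), and the interaction was -0.04 (95% interval -0.44 to 0.35).

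H2-K1, the other heavy chain, lies at chr17:33996017-34000347 (minus strand). It was at 29.3 and 23.8 CPM in vehicle-treated WT, 28 and 20.5 in E2-treated WT, 30.5, 29.9 and 28.2 in vehicle-treated Het-Met and 29.6, 27.5 and 21.5 CPM in E2-treated Het-Met libraries. The groups overlapped in every comparison. Its difference between genotypes averaged over treatments was 0.14 (95% interval -0.08 to 0.35; adjusted p = 0.523, limma).

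B2m, the light chain, lies at chr2:122147686-122153083, 12.4 Mb from Bdnf on the same chromosome. It was at 122 and 106 CPM in vehicle-treated WT, 109 and 103 in E2-treated WT, 124, 107 and 102 in vehicle-treated Het-Met and 123, 114 and 101 CPM in E2-treated Het-Met libraries. The lowest and the highest library of B2m were both from Het-Met mice. Its genotype difference averaged over treatments was 0.02 (95% interval -0.12 to 0.17), and its E2 difference averaged over genotypes was -0.04 (95% interval -0.19 to 0.11).

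Of the 5 genes that supply and load peptides, 0 had an unadjusted p under 0.05 in any pairwise comparison. Tap1 and Tap2 encode the subunits of the peptide transporter, Tapbp the bridge from transporter to class I molecule, and Psmb8 and Psmb9 the immunoproteasome subunits. All but Tapbp lie within a short stretch of chr17, and the starts of Psmb9 and Tap1 are 226 bases apart on opposite strands. Tap2 (chr17:34203527-34216321) was at 11.4 and 11 CPM in vehicle-treated WT, 9.74 and 8.94 in E2-treated WT, 11.2, 12.8 and 11.9 in vehicle-treated Het-Met and 11.9, 10.1 and 8.82 CPM in E2-treated Het-Met libraries. Both E2-treated WT libraries were below both vehicle-treated ones, and in Het-Met mice E2-treated replicate 1 lay among the vehicle-treated libraries. With E2 averaged over genotypes Tap2 was 1.18-fold lower (log2 -0.24, SE 0.09), with an unadjusted p of 0.0242 and an adjusted p of 0.999 (limma).

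Tap1 (chr17:34187553-34197225) had 4.3 and 2.68 CPM in vehicle-treated WT, 4.58 and 3.74 in E2-treated WT, 3.84, 3.78 and 5.06 in vehicle-treated Het-Met and 4.36, 4.79 and 3.56 CPM in E2-treated Het-Met libraries, with all groups overlapping. Psmb8 (chr17:34197721-34201454) had 3.19 and 2.43 CPM in vehicle-treated WT, 2.56 and 2.02 in E2-treated WT, 3.18, 2.37 and 2.64 in vehicle-treated Het-Met and 3.47, 2.67 and 2.99 CPM in E2-treated Het-Met libraries. Under E2 every Het-Met library of Psmb8 was above both WT libraries (log2 0.35, SE 0.19; adjusted p = 0.479, limma). Tapbp was between 30.3 and 36.2 CPM in all libraries, and Psmb9 between 0.599 and 1.37 CPM.

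Among the transcription factors, Stat2, which joins IRF9 in the ISRE-binding complex, was the most abundant. It lies at chr10:128270559-128292849. Stat2 was at 40.3 and 33.6 CPM in vehicle-treated WT and 32 and 31.5 CPM in E2-treated WT libraries. In Het-Met mice it was at 32.7, 33.9 and 39.6 CPM under vehicle and 41, 38.5 and 37.1 CPM under E2. The E2-treated genotypes did not overlap, while the vehicle-treated ones did. Under E2, Stat2 was 1.22-fold higher in Het-Met than in WT mice (log2 0.29, SE 0.10), with an unadjusted p of 0.0127 and an adjusted p of 0.353 (limma), and under vehicle the difference was -0.06 (95% interval -0.28 to 0.16). The interaction of Stat2 was 0.35 (95% interval 0.04 to 0.65; adjusted p = 0.81, limma). Between both treatments of Het-Met mice Stat2 differed by 0.14 (95% interval -0.05 to 0.33).

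Irf9, the DNA-binding partner of STAT2, had 15.8 and 11.5 CPM in vehicle-treated WT, 14.2 and 12.8 in E2-treated WT, 16.3, 13.8 and 15.7 in vehicle-treated Het-Met and 18.1, 15.2 and 12.5 CPM in E2-treated Het-Met libraries. Its groups overlapped in every comparison, and the genotype difference averaged over treatments was 0.16 (95% interval -0.08 to 0.40). Irf1 was between 7.14 and 11.8 CPM, Irf7 between 1.3 and 2.69 CPM and Nlrc5 between 0.427 and 2.33 CPM. The highest value of both Irf7 and Nlrc5 was in E2-treated WT replicate 1. None of these 4 genes had an unadjusted p under 0.05 in this model. In other settings Irf9 did for genotype averaged over treatments, with a replicate block and without E2-treated Het-Met replicate 3. Irf1 did for E2 in Het-Met mice with only the groups compared. It also did so without vehicle-treated Het-Met replicate 2 or E2-treated Het-Met replicate 1. For genotype under vehicle, Irf1 did without vehicle-treated Het-Met replicate 2. Irf7 did for genotype under E2, as lower in Het-Met mice, without E2-treated Het-Met replicate 2. Fits with 1 library left in a group are not listed here.

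The sensors of viral RNA, Ddx58 (RIG-I) and Ifih1 (MDA5), gave 0 unadjusted p under 0.05 in this model. Ddx58 was between 6.74 and 9.59 CPM, and all 3 vehicle-treated Het-Met libraries (8.16, 7.47 and 8.21 CPM) were above both vehicle-treated WT libraries (7.12 and 6.74 CPM). Ifih1 was between 3.63 and 5.3 CPM, and its vehicle-treated Het-Met libraries (4.51, 3.63 and 4.36 CPM) were below the WT ones (4.72 and 5.3 CPM). The sensors thus lay on opposite sides of 0 in that comparison.

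Bst2, or tetherin, holds budding virus at the cell surface, and its gene lies at chr8:71534255-71537456 (minus strand). The WT libraries held 1.71 and 1.59 CPM under vehicle and 1.39 and 2.41 CPM under E2. The Het-Met libraries held 2.66, 2.37 and 2.64 CPM under vehicle and 1.52, 1.38 and 0.948 CPM under E2. All 3 E2-treated Het-Met libraries were below all 3 vehicle-treated ones, and the vehicle-treated Het-Met libraries were above both vehicle-treated WT libraries. In Het-Met mice Bst2 was 1.73-fold lower after E2 (log2 -0.79, SE 0.19, 95% interval -1.20 to -0.38), with an unadjusted p of 9.58e-04 and an adjusted p of 0.602 (limma). That adjusted p ranged from 0.299 to 1 over the other settings, and the difference from -0.89 to -0.65 with each library left out. Under vehicle Bst2 was 1.42-fold higher in Het-Met than in WT mice (log2 0.51, SE 0.22; adjusted p = 0.439, limma). In WT mice its E2 difference was 0.13 (95% interval -0.38 to 0.63). The interaction was -0.92 (95% interval -1.57 to -0.27; unadjusted p = 0.00889, adjusted p = 0.557, limma), and it went from -1.23 to -0.61 (without E2-treated WT replicate 2) with each library left out.

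Ifi27 (chr12:103434211-103440239) was at 20.8 and 21.9 CPM in vehicle-treated WT, 24 and 21.3 in E2-treated WT, 35.2, 24.6 and 24.1 in vehicle-treated Het-Met and 23.4, 21.5 and 22.7 CPM in E2-treated Het-Met libraries. Vehicle-treated Het-Met replicate 1 stood apart at 35.2 CPM, and the other two lay just above the range of the remaining libraries, whose highest was 24. Under vehicle Ifi27 was 1.29-fold higher in Het-Met mice (log2 0.36, SE 0.14; adjusted p = 0.417, limma), and the difference went from 0.19 (without vehicle-treated Het-Met replicate 1) to 0.46 with each library left out. After E2, Ifi27 in Het-Met mice was 1.22-fold lower (log2 -0.29, SE 0.12; adjusted p = 0.872, limma), and this went from -0.38 to -0.11 (without the same library) with each library left out.

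Oasl2, related to the 2′-5′ oligoadenylate synthetases, lies at chr5:114896936-114912234. It was at 5.41 and 5.45 CPM in vehicle-treated WT, 4.58 and 5.11 in E2-treated WT, 6.17, 5.9 and 6.12 in vehicle-treated Het-Met and 6.51, 6.13 and 5.55 CPM in E2-treated Het-Met libraries. Oasl2 was the 1 gene of the 33 in which all 6 Het-Met libraries were above all 4 WT libraries, as 2.63% of all genes were, and none of the 33 was lower in all of them, beside 1.72% of all genes. Averaged over treatments it was 1.17-fold higher in Het-Met mice (log2 0.22, SE 0.10; unadjusted p = 0.0358, adjusted p = 0.267, limma). Its spread within groups was the smallest of the 33, at 0.403 times the variance that read counting alone gives.

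The other antiviral genes were Ifit1, Ifit2 and Ifit3, which bind viral RNA, Rsad2 (viperin) and Rtp4, and none of these 5 had an unadjusted p under 0.05 in this model. Rsad2 did for genotype averaged over treatments without a filter, with a replicate block and with the choroid plexus covariate described below. Without E2-treated Het-Met replicate 3, both Rsad2 and Ifit1 did for that average. Ifit1 was between 1.94 and 4.21 CPM, Ifit2 between 8.73 and 10.1, Ifit3 between 5.17 and 6.68 and Rtp4 between 1.93 and 3.37 CPM. Rsad2 was at 1.11 and 1.19 CPM in vehicle-treated WT and at 1.9, 1.56 and 1.58 CPM in vehicle-treated Het-Met libraries, which did not overlap. Under E2 it was at 1.3 and 1.07 CPM in WT and 2.01, 1.57 and 1.04 CPM in Het-Met libraries, which did.

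Isg15 encodes a ubiquitin-like protein that is joined to other proteins during the response, and Usp18 the protease that removes it and dampens interferon signalling. Isg15 (chr4:156199424-156200818) was at 1.11 and 1.09 CPM in vehicle-treated WT, 1.21 and 0.774 in E2-treated WT, 1.14, 0.858 and 0.696 in vehicle-treated Het-Met and 1.47, 1.2 and 1.04 CPM in E2-treated Het-Met libraries. The groups of Isg15 overlapped in every comparison, and its difference after E2 in Het-Met mice was 0.32 (95% interval -0.10 to 0.74; adjusted p = 0.94, limma). Usp18 was between 0.427 and 1.31 CPM.

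Of the 5 interferon-inducible GTPases among the 33 genes, which attack the vacuoles of intracellular pathogens, Gbp3 (chr3:142560026-142573209) had the largest difference between genotypes averaged over treatments. It was at 4.44 and 3.47 CPM in vehicle-treated WT, 4.44 and 3.18 in E2-treated WT, 6.45, 5.7 and 5.29 in vehicle-treated Het-Met and 7, 6.32 and 3.84 CPM in E2-treated Het-Met libraries. Of the 6 Het-Met libraries, 5 were above all 4 WT libraries, and E2-treated Het-Met replicate 3 lay within the WT range. Averaged over treatments, Gbp3 was 1.42-fold higher in Het-Met mice (log2 0.51, SE 0.15, 95% interval 0.18 to 0.83), with an unadjusted p of 0.00496 and an adjusted p of 0.147 (limma). The unadjusted p of Gbp3 stayed under 0.05 without each of the 10 libraries in turn, and its adjusted p was between 0.0812 and 0.44 over all settings. Its log2 difference was 0.51 under vehicle and 0.51 under E2, and the interaction was -0.00 (95% interval -0.66 to 0.65). With each library left out the difference was 0.35 to 0.67 under vehicle and 0.29 to 0.75 under E2, the lowest being 0.29 without E2-treated WT replicate 2.

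Gbp2, the neighbour of Gbp3 on chromosome 3, was between 3.96 and 5.97 CPM, with overlap in every comparison. Igtp was between 2.28 and 4.36 CPM and Irgm1 between 7.63 and 10.8 CPM. Irgm1 was at 10.7 and 10.8 CPM in vehicle-treated WT libraries, above every E2-treated WT library (9.24 and 7.87) and every vehicle-treated Het-Met library (9.39, 9.59 and 7.88 CPM). Iigp1 was between 1.42 and 4.27 CPM, both extremes in Het-Met libraries. None of Gbp2, Igtp, Irgm1 and Iigp1 had an unadjusted p under 0.05 in this model. Irgm1 did for E2 in WT mice with quantile normalization and with only the groups compared. For E2 averaged over genotypes, Irgm1 did without vehicle-treated Het-Met replicate 3 or E2-treated Het-Met replicate 2. Iigp1 did for genotype under vehicle, under E2 and averaged without E2-treated Het-Met replicate 3.

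Xaf1, a pro-apoptotic gene induced by interferon, lies at chr11:72301629-72313733. It was at 4.63 and 3.67 CPM in vehicle-treated WT, 2.83 and 2.54 in E2-treated WT, 3.7, 2.93 and 3.2 in vehicle-treated Het-Met and 3.77, 4.38 and 3.41 CPM in E2-treated Het-Met libraries. Both E2-treated WT libraries were below the other 8. In WT mice Xaf1 was 1.45-fold lower after E2 (log2 -0.54, SE 0.19, 95% interval -0.94 to -0.14; unadjusted p = 0.0113, adjusted p = 0.909, limma). In Het-Met mice the difference was 0.20 (95% interval -0.12 to 0.53). Under E2 Xaf1 was 1.36-fold higher in Het-Met than in WT mice (log2 0.45, SE 0.17; adjusted p = 0.363, limma), and the interaction was 0.75 (95% interval 0.23 to 1.26; unadjusted p = 0.00756, adjusted p = 0.549, limma).

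Lgals3bp, a secreted glycoprotein that binds galectins, lies at chr11:118392751-118402092. It was at 21.6 and 21.4 CPM in vehicle-treated WT, 26.4 and 23.5 in E2-treated WT, 25.8, 27.8 and 25.6 in vehicle-treated Het-Met and 28.1, 18.7 and 23 CPM in E2-treated Het-Met libraries. The E2-treated Het-Met libraries spanned both the lowest and the highest value of all 10. Under vehicle Lgals3bp was 1.22-fold higher in Het-Met mice (log2 0.29, SE 0.13; unadjusted p = 0.0452, adjusted p = 0.458, limma). Parp14, a mono-ADP-ribosyltransferase, was between 2.99 and 4.68 CPM, with no unadjusted p under 0.05.

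**Figure D3:**
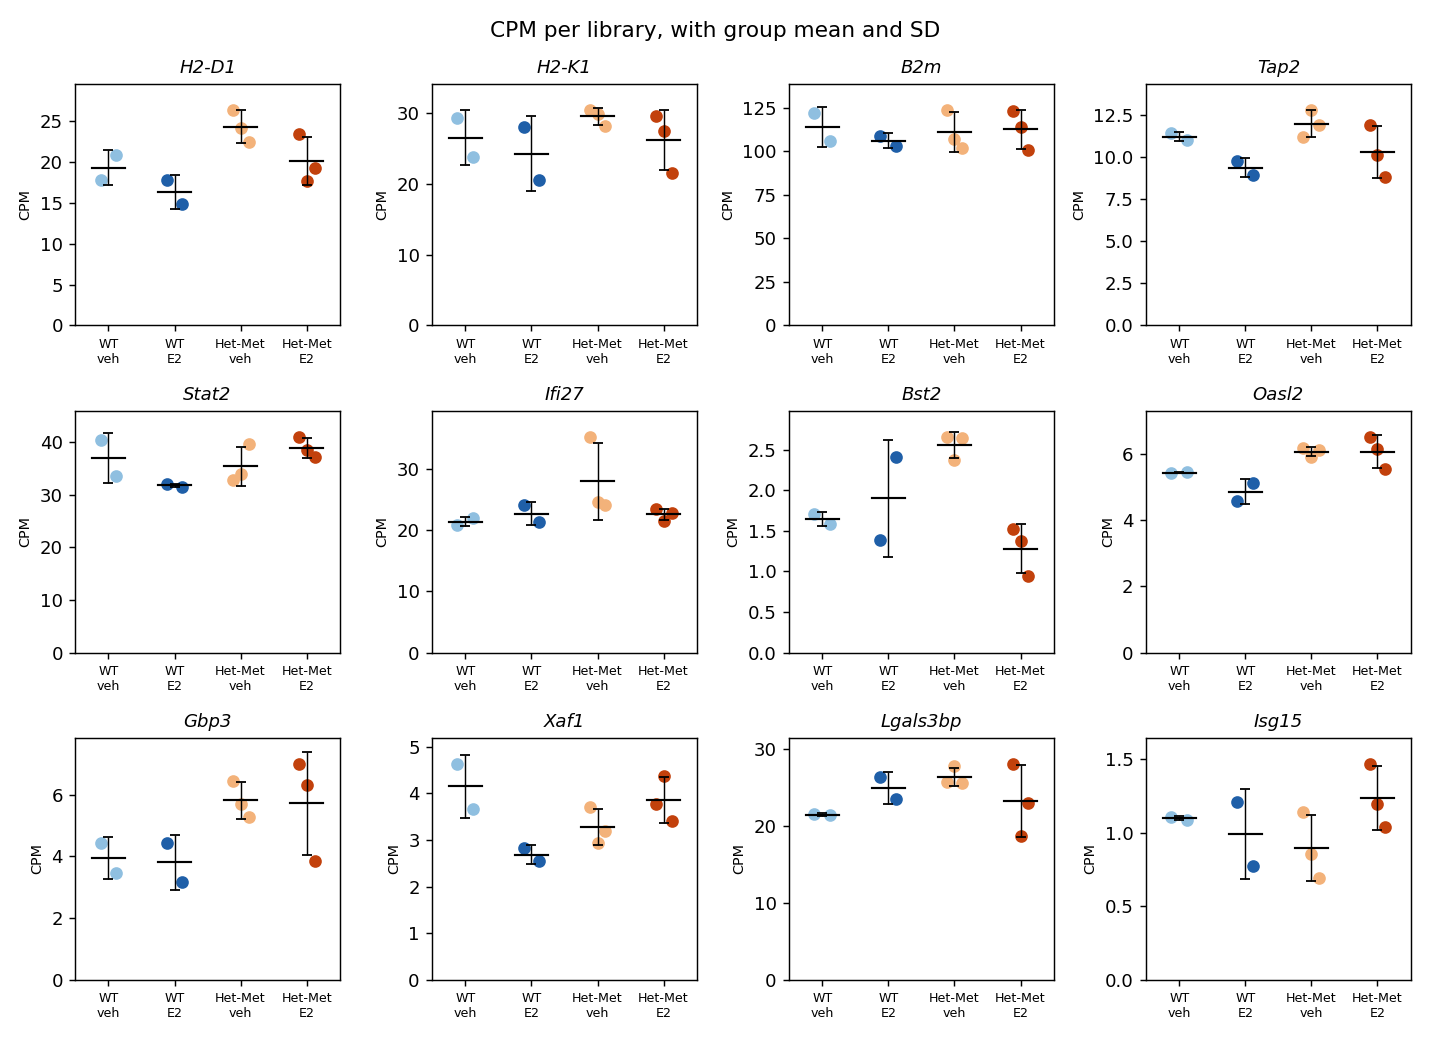
CPM of 12 genes in each library (points, linear axes from 0), with the group mean (long bar) and SD (error bar) for vehicle-treated (veh) and E2-treated WT and Het-Met mice. The 3 E2-treated Het-Met libraries of Bst2 (0.948 to 1.52 CPM) lie below the 3 vehicle-treated ones (2.37 to 2.66 CPM), the 6 Het-Met libraries of Oasl2 lie above the 4 WT libraries, and B2m overlaps in all 4 groups.

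The libraries of a group differed from each other in these genes as a block. E2-treated Het-Met replicate 1 held the highest value of its group in 25 of the 33 genes (75.8%, against 32.1% of all genes), and replicate 3 of that group the lowest in 23 (69.7%, against 31%) and the highest in 0 (against 38.2%). Replicate 3 was also the lowest of all 10 libraries in 10 of the 33 genes, as in 8.89% of all genes. Vehicle-treated WT replicate 1 was above replicate 3 in 25 of the 33 genes (53.3% of all genes), and E2-treated WT replicate 1 above replicate 2 also in 25 (50.7% of all genes). Vehicle-treated Het-Met replicate 1 was highest of its group in 19 (57.6%, against 43.2%). Summed over the 33 genes, the libraries held 414.4 and 368.6 CPM in vehicle-treated WT, 391.5 and 355.8 in E2-treated WT, 443.9, 405.1 and 406.2 in vehicle-treated Het-Met and 436.2, 400.7 and 364.5 CPM in E2-treated Het-Met mice. The widest range within a group was that of the E2-treated Het-Met libraries. Relative to the group mean, the median log2 value of the 33 genes was 0.18 in E2-treated Het-Met replicate 1 and -0.16 in replicate 3, while over all genes it was -0.00 and 0.01.

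**Figure D4:**
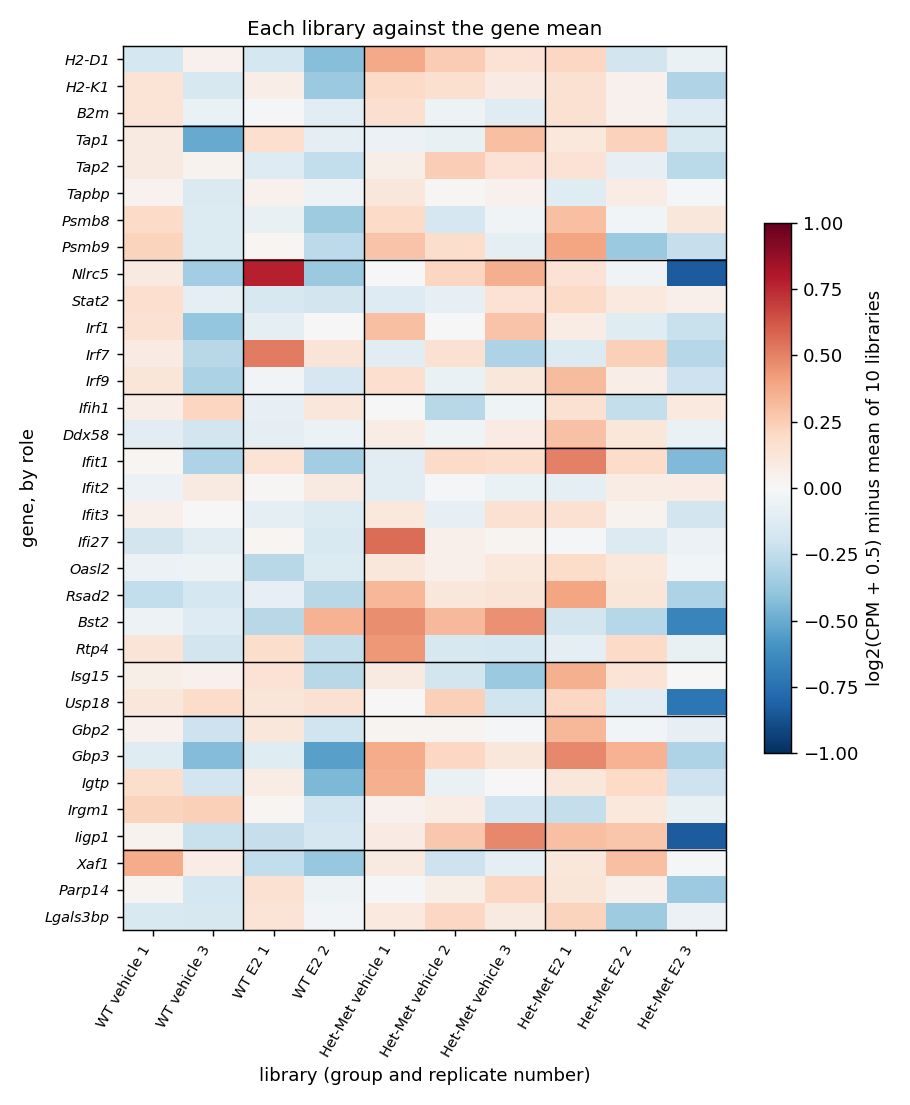
log2(CPM + 0.5) of each gene (rows, by role) in each library (columns) minus the mean of the 10 libraries, from -1 (blue) to 1 (red); values beyond the scale take its end colour. E2-treated Het-Met replicate 3 is the lowest of all libraries in 10 genes, and replicate 1 of the same group the highest of all in 12.

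**Figure D5:**
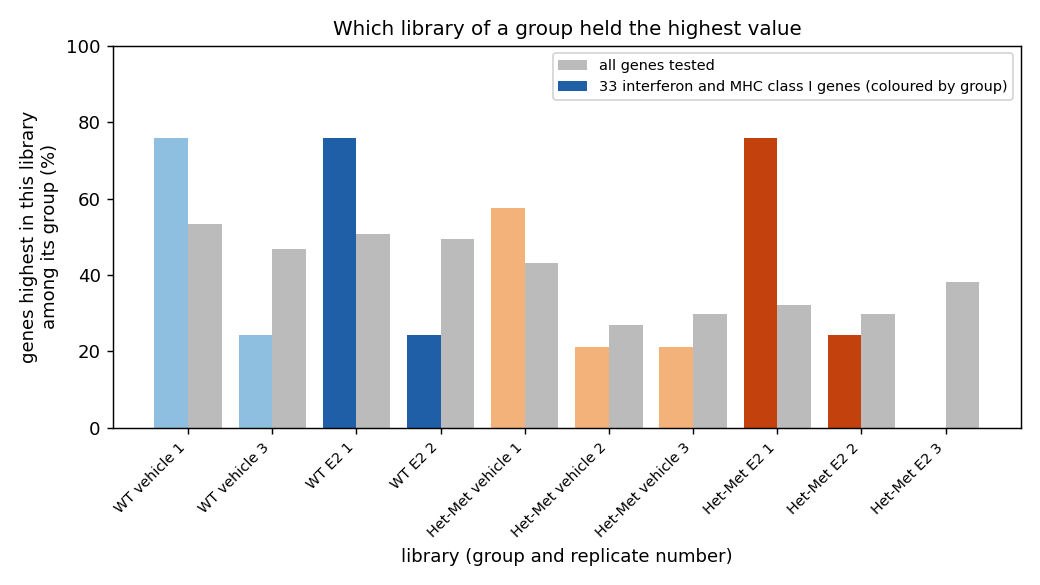
Percent of genes whose highest value within a group fell in each library, for the 33 genes (coloured by group) and for all genes tested (grey). E2-treated Het-Met replicate 1 held it in 75.8% of the 33 genes and 32.1% of all genes, and replicate 3 in 0% and 38.2%.

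Marker genes of the cells known for these genes were compared beside that order. The 10 endothelial markers summed to 289 and 256 CPM in vehicle-treated WT, 244 and 236 in E2-treated WT, 260, 275 and 249 in vehicle-treated Het-Met and 282, 241 and 224 CPM in E2-treated Het-Met libraries, so that in 3 of the 4 groups the library with the higher sum was the one with more interferon genes at their highest. The 12 microglial markers summed to 492 to 519 CPM in WT libraries, 505 to 569 in vehicle-treated Het-Met and 547, 550 and 505 CPM in E2-treated Het-Met libraries. All 22 of these markers were detected in every library. Among 13 blood cell markers, Hba-a1 and Hbb-bs (globins) were at 0 throughout, and the list summed to between 6.82 and 9.44 CPM. Alas2 of the same list was between 2.09 and 3.84 CPM. Whether the 0 of the globins reflects the blood content was not tested. The 7 hippocampal markers were all present, at sums of 555 to 666 CPM. The 5 thalamic markers summed to 37.8 and 46 CPM in vehicle-treated WT, 40.7 and 44.1 in E2-treated WT, 44.4, 41.4 and 54.2 in vehicle-treated Het-Met and 48.5, 57.2 and 67.1 CPM in E2-treated Het-Met libraries. Between genotypes under E2, 3 of the 4 thalamic markers tested were higher in Het-Met mice at an unadjusted p under 0.05 (median log2 difference 0.41), and 0 were called. The 11 meningeal markers summed to 338 to 499 CPM, with 3 higher between genotypes under vehicle, 3 lower after E2 in Het-Met mice and 2 lower between genotypes under E2 at that p. The part of endothelial, microglial, thalamic and meningeal content in the values of the interferon genes was not tested.

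Choroid plexus markers varied more between libraries than the other marker lists. The 12 markers summed to 156 and 1.09e+03 CPM in vehicle-treated WT, 2.55e+03 and 1.92e+03 in E2-treated WT, 3.28e+03, 1.47e+03 and 1.95e+03 in vehicle-treated Het-Met and 1.57e+03, 445 and 270 CPM in E2-treated Het-Met libraries. All 12 had an unadjusted p under 0.05 and were higher after E2 in WT mice and in Het-Met mice under vehicle, all 12 were lower in Het-Met mice under E2 and in the interaction, and 9 of the 12 were lower after E2 in Het-Met mice (median log2 difference -1.18), with 0 called. With their level as a covariate, an alternative chosen after seeing the data, 0 interferon or class I genes were called in any comparison (limma). Between genotypes under vehicle, the 5 genes at an unadjusted p under 0.05 became 0, and H2-D1 went from 0.33 to 0.07, while the count over all genes went from 1611 to 1211. The single gene of E2 in WT mice became H2-D1 in place of Xaf1, the 3 genes of E2 in Het-Met mice became Bst2 alone, the 5 of genotype under E2 became H2-D1 and Gbp3, and the 4 of the interaction became 0. Over all genes these counts went from 609 to 412, from 822 to 545, from 1758 to 572 and from 818 to 413. The averages changed less: H2-D1, Oasl2 and Gbp3 kept an unadjusted p under 0.05 between genotypes, joined by Rsad2, and H2-D1, Tap2 and Bst2 did so for E2. Between genotypes under E2, the log2 difference of H2-D1 was 0.29 in the main fit. It reached 0.55 over the settings other than a library left out. The marker level itself differed between the groups, so the fit with the covariate cannot separate it from genotype or E2.

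Further genes of the pathway, in 7 lists, were tested in the same fit, and 0 of the 104 measured ones were called in any comparison. Of the interferons and their receptors, 5 were measured, and Ifngr2, a chain of the type II receptor, had an unadjusted p under 0.05 between genotypes under vehicle. It was at 65.3 and 71 CPM in WT and 78.4, 74.6 and 83 CPM in Het-Met libraries, which did not overlap (log2 0.21, SE 0.07; adjusted p = 0.378, limma). Of 16 JAK-STAT and IRF factors, Pias1, a SUMO ligase, differed by -0.17 between genotypes averaged over treatments (SE 0.07; unadjusted p = 0.0268, adjusted p = 0.239, limma). Socs3, an inhibitor of JAK signalling, was at 1.99, 1.92 and 1.58 CPM under vehicle and 2.5, 2.35 and 2.7 CPM under E2 in Het-Met mice (log2 0.38, SE 0.16; adjusted p = 0.872, limma). Of 16 sensors and adaptors of nucleic acid sensing, Adar, which edits double-stranded RNA, was lower in Het-Met mice under E2 (log2 -0.15, SE 0.07; adjusted p = 0.417, limma).

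The other class I and peptide loading genes, 18 measured, held more genes at an unadjusted p under 0.05 than the other lists: between genotypes averaged over treatments, 5 were higher (27.8%, beside 9.33% of all genes) and 1 lower (5.56%, beside 7.27%) in Het-Met mice. Psme1, a subunit of the interferon-inducible proteasome activator, was at 22.9 and 24.9 CPM in vehicle-treated WT, 25.2 and 24 in E2-treated WT, 35.6, 32.6 and 29.4 in vehicle-treated Het-Met and 26.5, 28.6 and 29.9 CPM in E2-treated Het-Met libraries. Every Het-Met library of Psme1 was above every WT library, and averaged over treatments its log2 difference was 0.32 (SE 0.07; unadjusted p = 4.33e-04, adjusted p = 0.12, limma). The non-classical class I gene H2-T24 was at 8.61 and 5.65 CPM in vehicle-treated WT, 8.66 and 7.65 in E2-treated WT, 3.7, 4.54 and 5.06 in vehicle-treated Het-Met and 6.46, 5.35 and 4.08 CPM in E2-treated Het-Met libraries. H2-T24 was thus on the other side of 0 from H2-D1, with a log2 difference of -0.60 averaged over treatments (SE 0.14; unadjusted p = 7.45e-04, adjusted p = 0.12, limma).

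H2-T10, another non-classical class I gene, was at 3.1 and 5.1 CPM in vehicle-treated WT, 2.92 and 3.22 in E2-treated WT, 6.83, 7.21 and 7.61 in vehicle-treated Het-Met and 4.21, 2.86 and 4.79 CPM in E2-treated Het-Met libraries. The vehicle-treated Het-Met libraries of H2-T10 were above the other 7. Its log2 difference after E2 in Het-Met mice was -0.82 (SE 0.19; unadjusted p = 5.50e-04, adjusted p = 0.597, limma), and under vehicle between genotypes 0.78 (SE 0.21; adjusted p = 0.3, limma). Psmb10, the remaining inducible proteasome subunit, was at 21.5 and 22 CPM in E2-treated WT and 27.6, 27 and 27.3 CPM in E2-treated Het-Met libraries (log2 0.32, SE 0.10; adjusted p = 0.342, limma). Reads of the non-classical class I genes may be split between copies.

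MHC class II genes, 8 measured, present peptides from outside the cell and are carried by myeloid cells. After E2 in Het-Met mice 3 of the 8 were lower at an unadjusted p under 0.05: H2-Aa, H2-Eb1 and Cd74, beside 2.63% of all genes lower. In the same comparison all 12 choroid plexus markers lay below 0. H2-Aa was at 2.56, 3.58 and 2.64 CPM under vehicle and 2.06, 1.57 and 1.38 CPM under E2 in Het-Met mice, and H2-Eb1 at 2.32, 2.07 and 2.83 against 1.27, 1.24 and 1.42 CPM. Neither gene overlapped between treatments. Their log2 differences were -0.66 (SE 0.17; adjusted p = 0.668, limma) and -0.67 (SE 0.19; adjusted p = 0.71, limma), and the interaction of H2-Eb1 was -0.84 (SE 0.30; adjusted p = 0.674, limma).

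Among 32 other interferon-stimulated genes, Sp100, a nuclear body protein, was lower after E2 in WT mice, at 5.32 and 4.36 CPM under vehicle and 3.1 and 3.18 CPM under E2 (log2 -0.55, SE 0.18; adjusted p = 0.851, limma). Ifi27l2a, a relative of Ifi27, was higher after E2 in WT mice, at 0.324 and 0.545 against 0.987 and 0.989 CPM (log2 0.68, SE 0.26; adjusted p = 1, limma). Of 9 other interferon-inducible GTPases, Tgtp1 was lower in Het-Met mice under E2 (log2 -0.61, SE 0.24; adjusted p = 0.369, limma), opposite in sign to Gbp3. Reads shared with close copies were not checked in Tgtp1 or the other pathway genes. Over the 104 genes, 59 lay above 0 between genotypes under vehicle and 59 under E2, with medians of 0.03 and 0.03, against 24 and 22 of the 33 and medians of 0.11 and 0.11. The 24 became 17 without vehicle-treated WT replicate 3, and the 22 became 17 without E2-treated WT replicate 2.

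Read counting accounted for part of the spread within groups. The variance between replicates was a median of 2.16 times that expected from counting over the 33 genes, from 0.403 in Oasl2 to 20.3 in B2m, against 3.34 over all genes tested, and it was under 2 in 14 of the 33. For genes at up to 5 CPM the medians were 1.85 in 17 members and 1.66 in all genes. In the low genes, differences between groups smaller than the intervals given were not detectable at this depth and with 2 or 3 pools per group.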

How the data were processed

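RNA of the vHpc from 10 pools of 2 animals was sequenced by the authors as 75-bp single-end reads from stranded libraries and aligned to mm10 with TopHat2, and counted per gene symbol (featureCounts, by the name of the deposited table). The submitters' processing notes also name DESeq and DESeq2; versions and the gene annotation are not given in the sources used here. The authors deposited CPM per gene symbol, under headers that name counts; each library sums to 1000000. In all 10 libraries 100% of values were whole multiples of 1 read (tolerance 0.01), so the counts behind the deposited CPM could be recovered; they were used only in edgeR, DESeq2 and the counting-noise values.

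The 33 genes were chosen by name, and they, the pathway and marker lists and the tests were chosen with earlier results of these data known. limma 3.58.1 in R 4.3.3 was fitted to log2(CPM + 0.5) of 15081 genes that averaged 0.5 CPM or more, with 4 group means, all 10 libraries and eBayes with a trend on intensity (8.9 prior and 6 residual degrees of freedom) and two-sided tests; p-values were adjusted over all genes tested. Groups followed the labels. Alternatives were a pseudocount of 0.1 or 1, a filter at 2 CPM or none, quantile or median-of-ratios normalization, a replicate block, edgeR 4.0.16, DESeq2 1.42.0, only the groups compared, each library left out, and the choroid plexus covariate, added after seeing the data. Simulated data served to check the test. Positions and exon lengths came from GENCODE vM21 (GRCm38, the same assembly as mm10), promoters from RefSeq, and figures were drawn with matplotlib 3.10.9.

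Values per library were given for genes with an unadjusted p under 0.05 in any of 7 comparisons and for H2-D1, H2-K1, B2m, Stat2, Irf9, Isg15, Psmb8 and Tap1, and of each pathway list for up to 2 genes with the smallest p under 0.05. Other genes were given by their range; values per library of Ddx58, Ifih1, Rsad2 and Irgm1, and H2-T24 and Psmb10 beyond the 2 of their lists, were added after their values were seen. Some results of the pathway lists are not reported here. Intervals and limits from counts cover counting error only.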

Additional observations from a re-analysis of the deposited data

Results flagged for a closer look

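The E2 difference itself differed between genotypes at an unadjusted p under 0.05 in 4 of the 33 genes, beside 5.42% of all genes tested, and none of the 4 passed the correction over all genes (limma). The interaction of Xaf1 was 0.75 (adjusted p = 0.549): both E2-treated WT libraries were below both vehicle-treated ones, and 2 of 3 E2-treated Het-Met libraries were above all 3 vehicle-treated Het-Met libraries. It stayed between 0.6 and 0.89 with each library left out.

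Bst2 had an interaction of -0.92 (adjusted p = 0.557), with all 3 E2-treated Het-Met libraries below all 3 vehicle-treated ones and the 2 E2-treated WT libraries on either side of the vehicle-treated ones. The interaction of Stat2 was 0.35 (adjusted p = 0.81), from 0.22 (without vehicle-treated WT replicate 1) to 0.48 with each library left out, and that of Lgals3bp was -0.40 (adjusted p = 0.904), from -0.55 to -0.26 (without E2-treated Het-Met replicate 2). Leaving out a library brought the unadjusted p of Stat2 to as much as 0.165 and that of Lgals3bp to 0.167.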

How the results depend on the processing

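In every setting and comparison 0 of the 33 genes were called. Where 1 of the 33 had an unadjusted p under 0.05 in the main limma fit, the direction of that difference did not turn in any setting. The directions of other differences, such as those of the pathway genes, were not compared between settings. The counts at an unadjusted p under 0.05 moved as follows. For E2 in WT mice the count of 1 was 2 with quantile normalization and with only the groups compared, and 1 to 2 with each library left out. For genotype under vehicle the count of 5 was 3 without a filter and 3 by DESeq2, and 0 to 5 with each library left out. For genotype under E2 the count of 5 was 2 without a filter, 2 by DESeq2, and 3 with median-of-ratios scaling, by edgeR and with only the groups compared, and 1 to 6 with each library left out. For E2 in Het-Met mice the 3 were 1 to 6, for the interaction the 4 were 2 to 4 (median log2 difference -0.17 to 0.11), for E2 averaged the 3 were 1 to 4, and for genotype averaged the 3 were 2 to 9 with each library left out. With the choroid plexus covariate the counts were 1 for E2 in Het-Met mice, 0 and 2 for genotype under vehicle and under E2, and 0 for the interaction, and the medians were -0.21 for E2 in WT mice and 0.24 for the interaction. The cause was not tested.

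Libraries with the same replicate number were not more alike in their deviations from the group means. The 12 pairs with the same number had correlations of -0.17 to 0.08, 0 of them over 0.1. The 25 pairs with different numbers had -0.15 to 0.17. In groups of 2 libraries the deviations mirror each other, so these pairs are not independent. They cannot decide whether the libraries were paired. With a replicate block, genotype averaged over treatments had 6 genes at an unadjusted p under 0.05 in place of 3, with 0 called, and the block changed no other count by over 1.5 times. Bst2 has no value at a mean of at least 2 CPM, and the fit of only the groups compared has none for the interaction and the averages. Genes of a few CPM rest on under 100 reads a library, which limits what can be seen in them.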
